A study of Homo sapiens with 4 samples.

Results

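The 9 genes described here are NFE2L2, KEAP1, SLC7A11, GCLC, GCLM, TXNRD1, SRXN1, NQO1 and HMOX1, antioxidant genes of the NRF2 pathway. They were taken by name from the count tables, which together list 31907 gene names. The tables come from RNA sequencing of HGC-27, a human gastric cancer cell line, in 2 libraries of cells given PBS and 2 libraries of cells given 200 ng/ml rIL-17B (recombinant IL-17B), each collected after 48 h. The comparison asks which transcripts differ when the cells meet this cytokine. All 9 genes had counts in 3 of the libraries, and SRXN1 had none in rIL-17B replicate 2. 8 of the 9 passed the filter on low counts and were tested, and SRXN1 did not pass. A single cell line was used, and no label says that the 2 libraries of a group came from separate cultures, so p-values measure the spread between these libraries, which may be technical.

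NRF2, the product of NFE2L2, is a transcription factor that switches on genes against oxidants and reactive compounds. In resting cells KEAP1 holds it for destruction through the CUL3 ubiquitin ligase, and oxidants or electrophiles that modify KEAP1 let NRF2 build up and bind, with a small MAF partner, to antioxidant response elements. The autophagy receptor p62 (SQSTM1) also binds KEAP1, which ties this pathway to autophagy, the process studied in these cells. Many tumours show raised NRF2 activity.

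The core of the antioxidant response element was searched as TGACNNNGC on both strands in RefSeq promoter windows (GRCh38.p14), which run from 250 bases before to 50 bases after a start site. Of the 9 genes, 7 were found in the promoter table, with 10 windows because some genes have several start sites. The core was found in 4 of the 10 windows, in GCLM, TXNRD1 and KEAP1, and in 13.3% of all 35116 windows. The AP-1-like motif TGANTCA, searched the same way, was in 0 of the 10 windows and in 7.71% of all windows. The 4 windows with the core are printed because they hold letters that match the element NRF2 is known to bind. The capitals mark the core, each sequence runs 5′ to 3′ along the gene, and a match is a description of letters, not a sign of binding.
GCLM, chr1:93909381-93909680, minus strand: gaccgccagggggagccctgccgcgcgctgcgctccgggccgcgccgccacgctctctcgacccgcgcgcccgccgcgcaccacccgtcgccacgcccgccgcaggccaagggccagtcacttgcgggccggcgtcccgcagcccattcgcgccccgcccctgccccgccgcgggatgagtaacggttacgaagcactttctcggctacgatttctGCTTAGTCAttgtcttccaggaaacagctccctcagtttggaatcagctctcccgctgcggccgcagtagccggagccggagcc
TXNRD1, upstream start, chr12:104215529-104215828, plus strand: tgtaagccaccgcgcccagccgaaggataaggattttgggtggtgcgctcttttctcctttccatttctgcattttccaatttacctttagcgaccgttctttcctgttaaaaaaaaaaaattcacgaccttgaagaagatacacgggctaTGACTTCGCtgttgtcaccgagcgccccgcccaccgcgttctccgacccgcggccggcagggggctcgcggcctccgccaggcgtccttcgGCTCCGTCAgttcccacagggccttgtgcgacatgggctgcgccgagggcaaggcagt
TXNRD1, downstream start, chr12:104286782-104287081, plus strand: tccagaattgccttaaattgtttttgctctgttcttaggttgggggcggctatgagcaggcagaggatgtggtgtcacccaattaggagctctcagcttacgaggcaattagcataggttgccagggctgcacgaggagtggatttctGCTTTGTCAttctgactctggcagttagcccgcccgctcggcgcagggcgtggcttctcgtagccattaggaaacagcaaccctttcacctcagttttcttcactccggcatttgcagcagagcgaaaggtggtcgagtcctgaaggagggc
KEAP1, chr19:10502722-10503021, minus strand: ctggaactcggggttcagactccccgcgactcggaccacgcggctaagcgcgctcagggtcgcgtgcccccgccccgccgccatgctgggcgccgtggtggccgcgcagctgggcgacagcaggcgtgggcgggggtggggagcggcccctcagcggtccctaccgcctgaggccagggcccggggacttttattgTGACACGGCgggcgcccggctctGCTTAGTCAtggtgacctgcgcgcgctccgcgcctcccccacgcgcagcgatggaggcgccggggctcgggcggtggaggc
The matches in GCLM (TGACTAAGC, 34 bases before the start site) and at the downstream start of TXNRD1 (TGACAAAGC, 102 bases before it) both read on the reverse strand of the gene, within cgatttctGCTTAGTCAttgtcttc and ggatttctGCTTTGTCAttctgact. At its downstream start KEAP1 held the same 9 letters as GCLM, 31 bases before that site, and a further match in the other direction (TGACACGGC). The upstream window of TXNRD1 held a match on each strand (TGACTTCGC and TGACGGAGC). The upstream window of KEAP1 (chr19:10503307-10503606) and the windows of NFE2L2, GCLC, NQO1 and SRXN1 held no match to these letters. HMOX1 and SLC7A11 were not matched in the promoter table.

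The libraries held between 12888029 and 17555879 counts after cleaning, so that 3 counts, the smallest level taken as shown, corresponded to 0.171 to 0.233 CPM, the count scaled to the library total. rIL-17B replicate 1 stood apart from the other 3 libraries. In that library 342 genes had at most 3 counts although each other library had at least 100, and 0 genes behaved so in any other library. The keratins KRT8 and KRT18 were read in every library, whereas the stomach markers TFF1, TFF2, MUC5AC, MUC6, GKN1 and CLDN18 summed to between 2.39 and 4.42 CPM, with TFF1 at 0 in all 4. The library protocol in the labels speaks of monocytes, and 7 monocyte markers summed to between 8.55 and 10.4 CPM. In rIL-17B replicate 1 CSF1R gave 8.14 CPM of that sum, against 3.90 to 6.15 CPM in the other libraries, and PTPRC, ITGAM, LYZ and FCGR3A were at 0. In the other libraries PTPRC had 22 to 47 counts and ITGAM 10 to 16, while LYZ and FCGR3A had only 1 to 4. 5 epithelial markers summed to 777 to 1001 CPM in the other 3 libraries and to 1818 CPM in rIL-17B replicate 1. Nearly all of these sums was KRT8 and KRT18, and KRT19 had 1 count in rIL-17B replicate 1 against 43 to 58 counts in the others. 5 mesenchymal markers (VIM, FN1, CDH2, ZEB1, SPARC) summed to 31456 to 37879 CPM in the other 3 libraries and to 708 CPM in rIL-17B replicate 1, and 8 neural and glial markers to 79.9 to 161 CPM and to 0.684 CPM, with 6 of these 8 at 0 there. Of these 8, SOX10 and DCX had 0 counts in all 4 libraries, and GFAP had 3 to 11 counts in each. Most of the neural and glial sum in the other 3 libraries was OLIG1, OLIG2 and STMN2. 4 endothelial markers summed to 18.7 to 30.5 CPM and to 1.03 CPM. Whether this library, labelled HGC-27 like the others, came from the same cells was not tested, so each rIL-17B mean and fold change joins 2 unlike libraries. On library totals the median log2 ratio to the PBS mean over 16361 genes was 0.089 in this library and -0.001 in rIL-17B replicate 2. The part of these differences in the members' results was not tested. Without rIL-17B replicate 1 the log2 fold changes against PBS were 0.070 for NFE2L2, 0.095 for SLC7A11, 0.068 for NQO1 and 0.068 for TXNRD1. They were -0.013 for KEAP1, 0.018 for GCLC, -0.044 for GCLM and -0.21 for HMOX1.

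Per length, HMOX1 was the most abundant of the 9 transcripts in both PBS libraries and SRXN1 the least. The order of the 9 was alike in the 2 PBS libraries and rIL-17B replicate 2. The level and place of SRXN1 are uncertain, as AL121758.1 covers 84.95% of its exon bases on the same strand. Levels were compared between genes as counts per kilobase of annotated exon, scaled so that every library had the same sum. On this length-scaled level HMOX1 stood at 1202 and 1162 with PBS, at 189 and 1025 in rIL-17B replicates 1 and 2. NQO1 followed with 388 and 370 in the PBS libraries and 445 and 398 in the rIL-17B libraries. TXNRD1 had 386 and 368 with PBS and 395 and 396 with rIL-17B, so that the ranges of NQO1 and TXNRD1 overlapped over the 4 libraries. With the longest transcript as the length in place of all exons, TXNRD1 came before NQO1 and the ranges of that pair did not overlap.

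The next in order were NFE2L2 (136 to 172 over the 4 libraries), KEAP1 (95.3 to 119), SLC7A11 (81.0 to 102), GCLM (64.4 to 76.6) and GCLC (18.2 to 28.8). KEAP1 and SLC7A11 overlapped in range, although KEAP1 was the higher of them in each of the 4 libraries. With the longest transcript as the length these genes kept their order, but KEAP1 and SLC7A11 did not overlap and SLC7A11 and GCLM did. The levels moved too, to 222 to 275 for NFE2L2 and 31.4 to 50.7 for GCLC. In rIL-17B replicate 1 HMOX1 ranked 3 of the 9, behind NQO1 and TXNRD1. With PBS the length-scaled level of HMOX1 exceeded that of 99.7% of 16111 genes, NQO1 and TXNRD1 each exceeded 98.4%, and GCLC exceeded 66.9%.

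**Figure D1:**
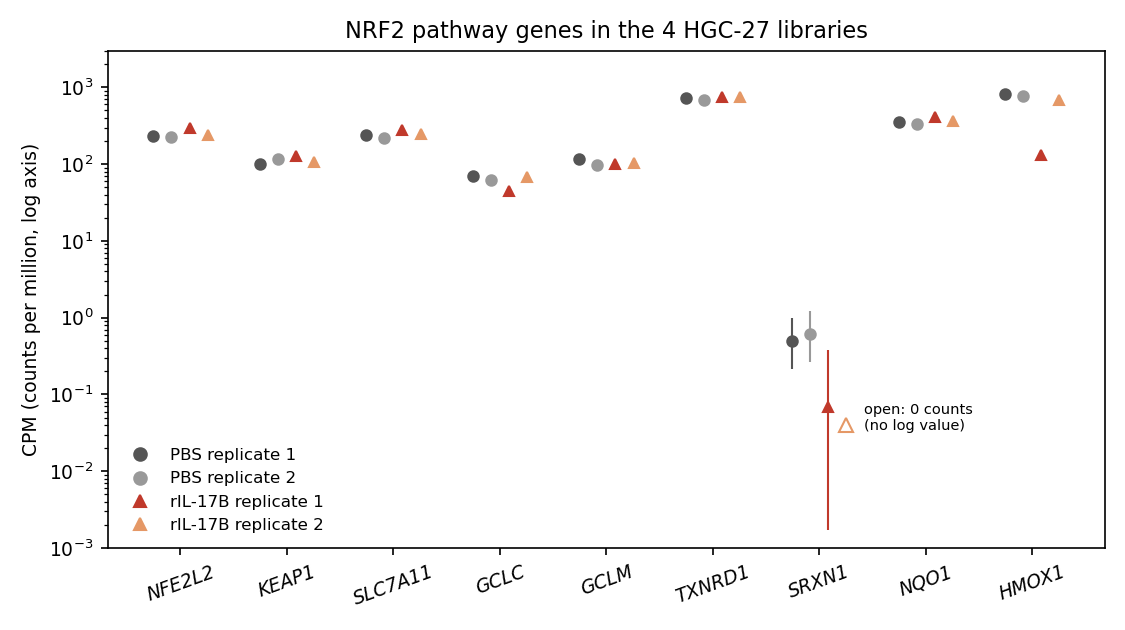
CPM of the 9 genes (log axis) in the 2 PBS libraries (circles) and the 2 rIL-17B libraries (triangles), with exact 95% Poisson intervals that cover counting error only and are mostly smaller than the symbols. HMOX1 was at 130 CPM in rIL-17B replicate 1 and between 695 and 817 CPM in the other libraries. SRXN1 lay under 1 CPM throughout, and its counts are uncertain because AL121758.1 shares most of its exon bases. The open triangle stands for a count of 0.

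None of the 9 genes passed the test between rIL-17B and PBS. In edgeR's quasi-likelihood test 0 of the 8 tested members had an adjusted p under 0.05, beside 0% of all 16361 genes tested, and 0 of the 8 had an unadjusted p under 0.05, beside 1.38% of all genes. DESeq2 also called 0 members and 0 genes, with 457 genes at an unadjusted p under 0.05. 5 of the 8 log2 fold changes were above 0 and 3 below, with a median of 0.03, and the median over all genes tested was -0.03. With 2 libraries in each group the smallest two-sided p of an exact permutation test is 0.333, so no such p is given.

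The regulators NFE2L2 and KEAP1 were read in all 4 libraries. In rIL-17B replicate 1 they stood at 1.27 and 1.18 times their PBS means, and in replicate 2 at 1.05 and 0.99 times. NFE2L2 (chromosome 2, 177227595 to 177392697, minus strand) had 233 and 228 CPM in the PBS libraries against 294 and 243 CPM in the rIL-17B libraries. Both rIL-17B libraries were above both PBS libraries, rIL-17B replicate 2 by a small margin. The means were 231 ± 3.74 and 268 ± 36.0 CPM (SD, n = 2 libraries each), and the log2 fold change was 0.14 (SE 0.11, 95% interval -0.19 to 0.47, adjusted p = 0.661 in edgeR's test). KEAP1 (chromosome 19, 10486120 to 10503741, minus strand), the sensor that binds NRF2, had 101 and 116 CPM in the PBS libraries against 128 and 108 CPM in the rIL-17B libraries. The groups overlapped, and the log2 fold change was 0.04 (95% interval -0.30 to 0.39, adjusted p = 0.853 in edgeR's test). Of the exon bases of NFE2L2, 20.9% lie within exons of other annotated genes, mostly of AC019080.1 on the same strand (24 to 40 counts per library), and KEAP1 shares none. Reads on bases shared with a gene on the same strand cannot be told apart by strand. For genes on the opposite strand this is open, as the use of strand is not stated in the sources used here.

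SLC7A11, GCLC and GCLM supply glutathione: SLC7A11 is the cystine-importing subunit of the xCT exchanger, GCLC the catalytic subunit of glutamate-cysteine ligase, the rate-limiting enzyme of glutathione synthesis, and GCLM its modifier subunit. SLC7A11 (chromosome 4, 138164097 to 138242349, minus strand) had 242 and 219 CPM in the PBS libraries against 282 and 247 CPM in the rIL-17B libraries. The rIL-17B libraries were both above the PBS libraries, a gap that closed to an overlap when totals were scaled by the upper quartile. The log2 fold change was 0.12 (95% interval -0.22 to 0.46, adjusted p = 0.674 in edgeR's test). 8.97% of its exon bases lie within SLC7A11-AS1 on the opposite strand, a gene with 20 to 68 counts per library.

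GCLC (chromosome 6, 53497341 to 53616970, minus strand) had 70.3 and 62.2 CPM in the PBS libraries against 44.9 and 67.4 CPM in the rIL-17B libraries. rIL-17B replicate 1 was the lowest library, with an exact 95% Poisson interval of 41.5 to 48.5 CPM, and rIL-17B replicate 2 lay between the PBS libraries. The log2 fold change was -0.30 (95% interval -1.13 to 0.54, adjusted p = 0.676 in edgeR's test) and 0.018 without rIL-17B replicate 1. GCLM (chromosome 1, 93885205 to 93909456, minus strand) had 117 and 97.7 CPM in the PBS libraries against 101 and 105 CPM in the rIL-17B libraries. Both rIL-17B libraries lay between the 2 PBS libraries, and the log2 fold change was -0.13 (95% interval -0.57 to 0.31, adjusted p = 0.706 in edgeR's test).

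TXNRD1, the cytosolic thioredoxin reductase, had nearly the same level in all 4 libraries. TXNRD1 (chromosome 12, 104215779 to 104350305, plus strand) had 732 and 691 CPM in the PBS libraries against 757 and 748 CPM in the rIL-17B libraries. By library totals both rIL-17B libraries were above both PBS libraries, and with TMM or upper-quartile scaling the groups overlapped. The log2 fold change was 0.01 (SE 0.13, 95% interval -0.38 to 0.40, adjusted p = 0.968 in edgeR's test). SRXN1, the sulfiredoxin that repairs over-oxidised peroxiredoxins, lies on chromosome 20 (646615 to 653370, minus strand) and had 8 counts in each PBS library, 1 in rIL-17B replicate 1 and 0 in replicate 2. These are 0.503, 0.621, 0.0684 and 0 CPM, and 0 counts of that library allow up to 0.171 CPM at 3 counts and up to 0.210 CPM by the exact 95% Poisson interval. Pooled over each pair, the level with PBS was 17.9 times that with rIL-17B, with a 95% counting interval of 2.78 to 749.7. That interval holds no spread between libraries and counts PCR copies separately, so it does not test a difference between the groups. Without the filter on low counts its unadjusted p was 0.0139 and its adjusted p 0.772 in edgeR's test. AL121758.1, a protein-coding gene on the same strand, covers 84.95% of the exon bases of SRXN1 and had 2 to 5 counts per library. The way the counting tool treated reads shared by overlapping genes is not given in the sources used here, so the counts of SRXN1 are uncertain.

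NQO1, which reduces quinones and is a widely used readout of NRF2 activity, was near its PBS level in both rIL-17B libraries. NQO1 (chromosome 16, 69706996 to 69726951, minus strand) had 357 and 337 CPM in the PBS libraries against 414 and 365 CPM in the rIL-17B libraries. Both rIL-17B libraries were above both PBS libraries, with rIL-17B replicate 2 at 1.05 times and replicate 1 at 1.19 times the PBS mean. In log2 these were 0.07 for replicate 2 and 0.25 for replicate 1, beside medians over all genes tested of -0.001 and 0.089. The means were 347 ± 13.8 and 389 ± 34.6 CPM (SD, n = 2 libraries each), and the log2 fold change was 0.09 (SE 0.12, 95% interval -0.24 to 0.42, adjusted p = 0.716 in edgeR's test). An antisense gene, AC092115.2, shares 17.7% of the exon bases of NQO1 and had 0 counts in every library.

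HMOX1, the inducible heme oxygenase that breaks heme down to biliverdin, iron and carbon monoxide, was the member with the widest spread. HMOX1 (chromosome 22, 35380361 to 35394214, plus strand) had 817 and 782 CPM in the PBS libraries, 130 CPM in rIL-17B replicate 1 and 695 CPM in replicate 2. The PBS libraries differed from each other by a factor of 1.04 and the rIL-17B libraries by a factor of 5.34. Both rIL-17B libraries were below both PBS libraries, replicate 1 at 16.3% and replicate 2 at 86.9% of the PBS mean. The means were 799 ± 24.6 and 412 ± 399 CPM (SD, n = 2 libraries each), and the log2 fold change was -0.98 (SE 0.91, 95% interval -3.60 to 1.64, adjusted p = 0.670 in edgeR's test). HMOX1 shares no exon bases with another annotated gene.

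The HMOX1 level in rIL-17B replicate 1 was 6.15 times below the PBS mean, and 12.3% of all genes tested were at least as far below it in that library. Without rIL-17B replicate 1 the log2 fold change of HMOX1 was -0.21 (adjusted p = 0.158 in edgeR's test), and without rIL-17B replicate 2 it was -2.76 (adjusted p = 2.12e-190). These fits have 1 library in the rIL-17B group and assume that it varies like the PBS pair. In the fit without rIL-17B replicate 2, 4 of the 8 members passed, NFE2L2 higher and GCLC, GCLM and HMOX1 lower, beside 55.1% of all genes. In the fit without rIL-17B replicate 1, 0 of the 8 passed, beside 2.95% of all genes.

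**Figure D2:**
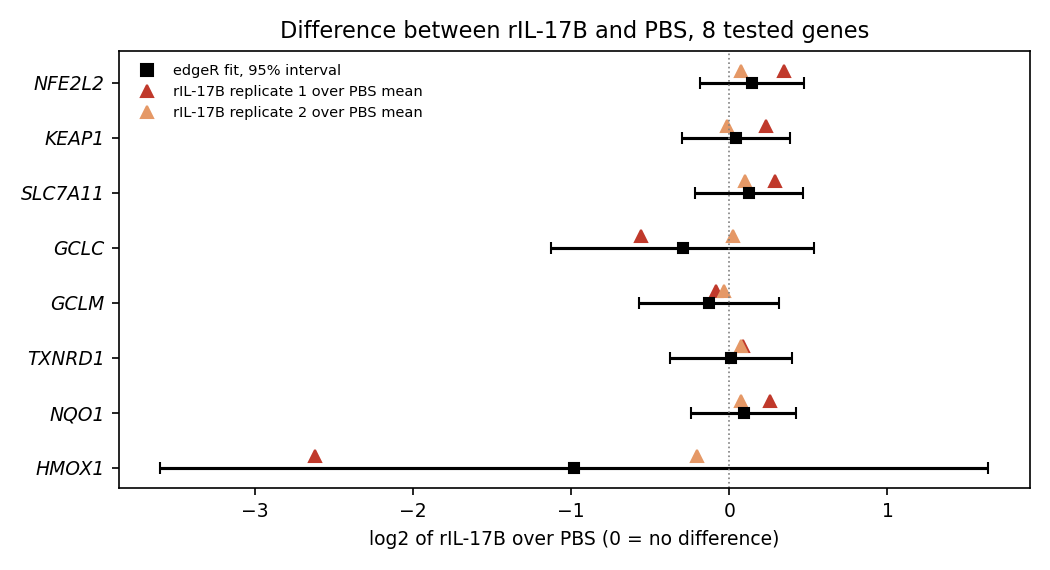
Log2 fold change of rIL-17B over PBS for the 8 tested genes from edgeR (squares with 95% intervals, TMM-normalized) and the log2 ratio of each rIL-17B library to the PBS mean (triangles, by library totals). The interval of every gene includes 0, and that of HMOX1, from -3.60 to 1.64, is the widest.

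On library totals, 4 of the 8 tested members (NFE2L2, SLC7A11, TXNRD1 and NQO1) had both rIL-17B libraries above both PBS libraries, beside 31.5% of all genes tested, and 1 (HMOX1) had both below, beside 27.5%. With TMM-scaled totals these counts were 3 and 1, beside 28.6% and 30.3%, and with upper-quartile scaling 2 and 1, beside 27.3% and 31.4%. Without rIL-17B replicate 1, rIL-17B replicate 2 lay above both PBS libraries in 4 and below both in 1 of the 8, beside 37% and 36.1% of all genes. At least 2 times below the PBS mean stood 1 of the 8 (HMOX1) in rIL-17B replicate 1, beside 20.7% of all genes, and 0 in rIL-17B replicate 2, beside 2.08%. At least 2 times above it stood 0 in rIL-17B replicate 1, beside 4.14%, and 0 in rIL-17B replicate 2, beside 0.538%. With both rIL-17B libraries at least 1.5 times away from both PBS libraries, 0 of the 8 stood above, beside 0.733%, and 0 below, beside 2.68%.

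Ratios between members within a library do not depend on scaling and set HMOX1 apart from NQO1 in rIL-17B replicate 1. Their size does depend on the length taken for each gene, here all annotated exons, so they compare libraries and not amounts of 2 genes. In PBS replicate 1, for example, GCLC and GCLM stood at 28.8 and 76.6 by all exons and at 50.7 and 66.4 by the longest transcript. The length-scaled level of HMOX1 was 3.10 and 3.14 times that of NQO1 with PBS, 0.425 times in rIL-17B replicate 1 and 2.58 times in replicate 2. For TXNRD1 against NQO1 the ratios were 0.996 and 0.994 with PBS and 0.888 and 0.995 with rIL-17B. The catalytic to modifier ratio, GCLC over GCLM, was 0.376 and 0.399 with PBS, 0.278 in rIL-17B replicate 1 and 0.403 in replicate 2. NFE2L2 over KEAP1 was 1.45 and 1.24 with PBS and 1.45 and 1.42 with rIL-17B, within the spread of the PBS pair for replicate 1 and replicate 2 alike. SLC7A11 over SLC3A2, the 2 chains of the cystine exchanger, was 0.194 and 0.183 with PBS and 0.168 and 0.182 with rIL-17B.

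**Figure D3:**
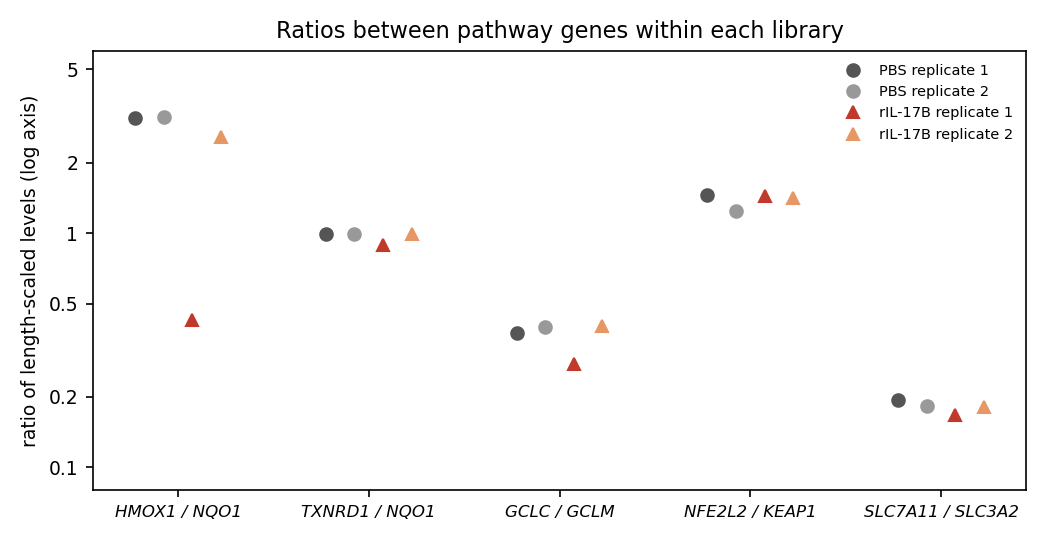
Ratio of the length-scaled levels of 2 genes within each library (log axis) for 5 pairs, with PBS libraries as circles and rIL-17B libraries as triangles. HMOX1 over NQO1 was 0.425 in rIL-17B replicate 1 against 2.58 to 3.14 in the other libraries, while TXNRD1 over NQO1 stayed between 0.888 and 0.996.

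Summed over the 9 genes, the libraries held 2670.3 and 2533 CPM in the PBS libraries against 2150.0 and 2577 CPM in the rIL-17B libraries. HMOX1 made up 30.6% and 30.9% of that sum with PBS, 6.05% in rIL-17B replicate 1 and 27.0% in replicate 2. Without HMOX1 the sums were 1853 and 1751 CPM in the PBS libraries against 2020 and 1882 CPM in the rIL-17B libraries. On library totals the rIL-17B libraries were thus above both PBS libraries without HMOX1. With TMM scaling these sums were 1911 and 1784 against 1883 and 1923, and the groups overlapped.

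A wider list of 89 regulators, targets and partners of the pathway, the 9 members included, was read from the same fit. Of the 86 genes tested, 0 were called at 0.05 after adjustment in edgeR's test and 4 had an unadjusted p under 0.05, beside 1.38% of all genes. These 4 were HMOX2, PTGR1 and AKR1C2, with log2 fold changes of 0.42, 0.47 and 0.77, and GSTM4, with -0.48. GSTM4 had the smallest p of the 4 (unadjusted p = 0.0290, adjusted p = 0.661 in edgeR's test). Over the 86 genes the median log2 fold change was 0.09, beside -0.03 over all genes tested. Of the 86, 50 were above 0 (47.4% of all genes tested were) and 36 below (52.6% of all genes). On library totals 42 of the 86 had both rIL-17B libraries above both PBS libraries and 18 both below, beside 31.5% and 27.5% of all genes. The counts were 38 and 20 by TMM scaling, beside 28.6% and 30.3%, and 35 and 20 by upper-quartile scaling, beside 27.3% and 31.4%. Without rIL-17B replicate 1 they were 46 and 20, beside 37% and 36.1%.

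Among 13 regulators, 0 passed, 5 had a log2 fold change above 0 and 8 below. BACH1, a repressor of HMOX1 that competes with NRF2 for the same elements, had 51.8 and 57.0 CPM in the PBS libraries, 16.2 CPM in rIL-17B replicate 1 and 46.4 CPM in replicate 2, and was named after its values were seen. Its log2 fold change was -0.83 (adjusted p = 0.661 in edgeR's test), and the length-scaled level of NFE2L2 over BACH1 was 5.81 and 5.17 with PBS and 23.4 and 6.76 with rIL-17B. SQSTM1, which encodes p62, had 499.7 and 503 CPM in the PBS libraries against 433 and 498 CPM in the rIL-17B libraries. ATF4, a stress factor that also drives SLC7A11, had 457 and 429 CPM in the PBS libraries against 372 and 453 CPM in the rIL-17B libraries. The NRF2 relative NFE2L1 had 334 and 333 CPM in the PBS libraries against 266 and 317 CPM in the rIL-17B libraries, giving a log2 fold change of -0.26.

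Glutathione genes gave 0 calls among 7 genes of synthesis and uptake and 0 among 15 of use and recycling, with medians of 0.12 and 0.05 on the log2 scale. SLC3A2, the heavy chain that partners SLC7A11, had 671 and 641 CPM in the PBS libraries against 901 and 728 CPM in the rIL-17B libraries. Glutathione synthetase, GSS, had 51.4 and 49.1 CPM in the PBS libraries against 77.9 and 57.8 CPM in the rIL-17B libraries. CHAC1, an enzyme that degrades glutathione, had 36.7 CPM in each PBS library, 7.46 CPM in rIL-17B replicate 1 and 30.1 CPM in replicate 2. In that group rIL-17B replicate 1 was therefore above both PBS libraries for SLC3A2 and GSS and below both for CHAC1. The glutathione peroxidase GPX4, which reduces lipid peroxides, had 304 and 294 CPM in the PBS libraries against 455 and 337 CPM in the rIL-17B libraries, GSTP1 had a log2 fold change of 0.29 and GPX1 one of -0.18.

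In the thioredoxin and peroxiredoxin group 0 of 13 tested genes passed, with a median log2 fold change of 0.14. PRDX1, a peroxide-reducing enzyme, had 429.7 and 385 CPM in the PBS libraries against 826 and 501 CPM in the rIL-17B libraries, giving a log2 fold change of 0.62 (adjusted p = 0.661 in edgeR's test). It shares 24.9% of its exon bases with a gene on the opposite strand. PRDX5 had a log2 fold change of 0.14 and thioredoxin, TXN, one of 0.16. Of 18 quinone and carbonyl detoxification genes 0 passed, with a median of 0.17. Among them AKR1B1 had a log2 fold change of -0.01, EPHX1 one of -0.16 and PTGR1 one of 0.47 (unadjusted p = 0.0439, adjusted p = 0.661 in edgeR's test).

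Of 9 genes of heme and iron 0 passed, with a median log2 fold change of -0.05. The ferritin chains FTL and FTH1, which store iron, had log2 fold changes of -0.20 and -0.05, and the transferrin receptor TFRC, which brings iron in, had 740.5 and 709.9 CPM in the PBS libraries against 1342 and 866 CPM in the rIL-17B libraries. Of the exon bases of FTH1, 62.4% are shared with a gene on the opposite strand, so its counts are uncertain if strand was not used. HMOX2, the constitutive heme oxygenase, had 37.6 and 33.8 CPM in the PBS libraries against 55.1 and 45.4 CPM in the rIL-17B libraries, giving a log2 fold change of 0.42 (unadjusted p = 0.0348, adjusted p = 0.661 in edgeR's test). It was named after its values were seen. The length-scaled level of HMOX1 over HMOX2 was 34.3 and 36.5 with PBS, 3.72 in rIL-17B replicate 1 and 24.1 in replicate 2.

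Of 7 genes of NADPH supply 0 passed, with a median log2 fold change of 0.26. On library totals 6 had both rIL-17B libraries above both PBS libraries and 0 both below, beside 31.5% and 27.5% of all genes. The counts were 5 and 1 with TMM scaling, beside 28.6% and 30.3%, and 6 and 1 with upper-quartile scaling, beside 27.3% and 31.4%. On library totals the regulators gave 3 and 5 of 13, and the glutathione groups 4 and 1 of 7 and 7 and 4 of 15. Thioredoxin and peroxiredoxin genes gave 7 and 2 of 13, and detoxification genes 10 and 2 of 18. Heme and iron genes gave 4 and 2 of 9, and superoxide and peroxide enzymes 1 and 2 of 4. TALDO1 and PGD, enzymes of the pentose phosphate pathway, had log2 fold changes of 0.34 and 0.06. Of 4 superoxide and peroxide enzymes 0 passed, and SOD1 and CAT had log2 fold changes of 0.08 and 0.13. SOD3, the extracellular superoxide dismutase, had 4.09 and 5.28 CPM in the PBS libraries, 3.19 CPM in rIL-17B replicate 2 and 0 counts in rIL-17B replicate 1, which put that library at least 22.8-fold lower than the PBS mean at a floor of 3 counts for that library.

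**Figure D4:**
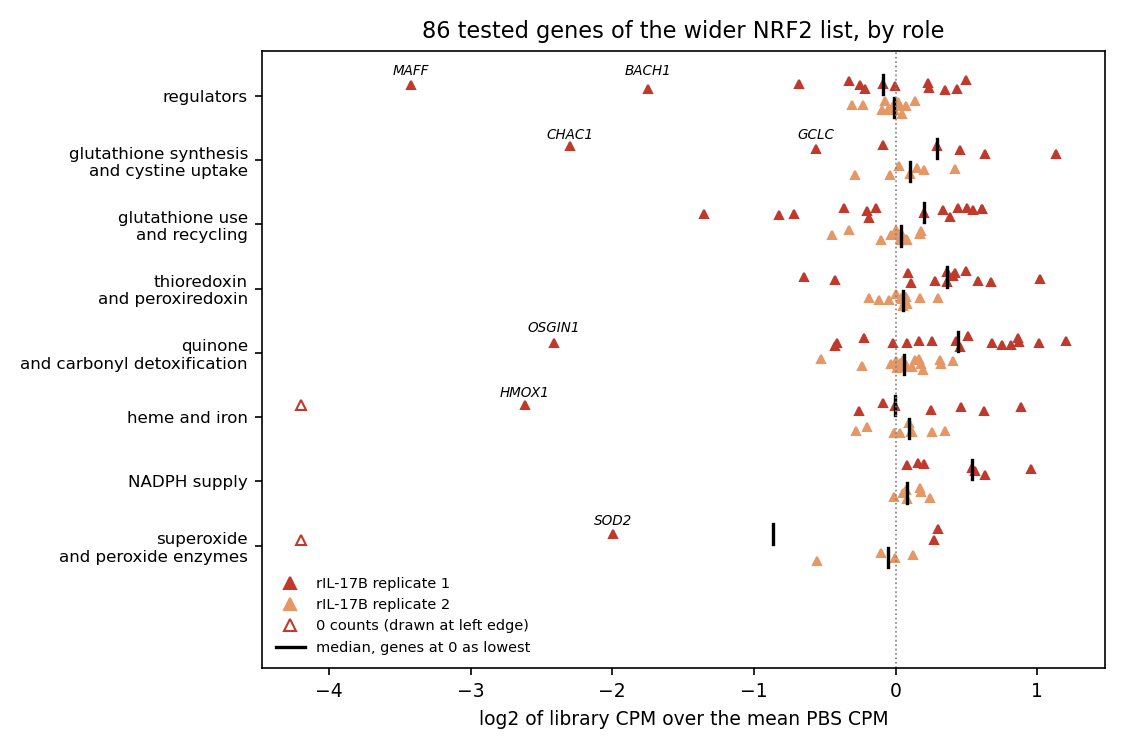
Log2 ratio of each rIL-17B library to the mean of the PBS libraries, by library totals, for the 86 tested genes of the wider list in 8 role groups, with black lines at the medians and open triangles at the left edge for genes with 0 counts. In rIL-17B replicate 1 the group medians ran from -0.86 to 0.54, and in rIL-17B replicate 2 from -0.05 to 0.10.

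Over the wider list the fit without rIL-17B replicate 1 called 5 of 87 genes, all higher, beside 2.95% of all genes. They were PRDX1, AKR1C1, AKR1C2, PTGR1 and TFRC, with log2 fold changes of 0.25 to 0.40. The fit without rIL-17B replicate 2 called 65 of 87, 37 higher and 28 lower, beside 55.1% of all genes. AKR1C1 and AKR1C2, named after these calls were seen, are close paralogs, so that shared reads make their counts uncertain.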

How the data were processed

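The RNA was made into libraries by Smart-seq2 (oligo-dT priming and PCR) and sequenced, with 2 libraries each for PBS and 200 ng/ml rIL-17B at 48 h. The authors deposited counts, whole numbers of reads per gene name without normalization, and the submitters' processing notes name HISAT2 2.1.0, Bowtie2 2.2.3, TopHat2, HTSeq 0.6.0 and hg38 without saying which step each served. Which annotation was counted, and whether strand was used, is not given in the sources used here. Genes at 0 are not listed, and a missing gene was given 0. Names listed several times with the same count (83 to 98 per library) were used once, and 22 to 25 entries per library turned into spreadsheet dates were left out.

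CPM was computed from the library total. All genes were fitted in edgeR 4.0.16 (R 4.3.3) with TMM, filterByExpr, the quasi-likelihood F test and Benjamini-Hochberg adjustment at 0.05. The SE is the log2 fold change divided by the square root of F. Alternatives were DESeq2 1.42.0, other scalings and filters, a replicate block, and leaving out each library. Coordinates and lengths come from GENCODE 29 (GRCh38), where 97.9% of names were found once. Named genes were the 9 members, the 3 others per role with the highest length-scaled level (SOD2, with no single length in the annotation, was not ranked), and any called or at least 1.5 times apart between all libraries, which held for SRXN1 alone. A gene that this rule names is not reported here. The members, lists and tests were chosen with earlier results of these data known. Poisson intervals and floors cover counting error only, since PCR copies were counted separately. Figures were drawn with Python 3.11.15.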

Additional observations from a re-analysis of the deposited data

How the results depend on the processing

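The counts of calls moved only when an rIL-17B library was left out: leaving out each library in turn, between 0 and 9489 genes of all those tested passed (9489 without rIL-17B replicate 2 and 504 without rIL-17B replicate 1), and between 0 and 65 genes of the wider list (65 and 5). Those fits hold 1 rIL-17B library. With DESeq2, upper-quartile normalization, library totals alone, no filter on low counts and at least 10 counts in every library, 0 genes passed. The number of members with both rIL-17B libraries above both PBS libraries was 2 with upper-quartile scaling against 4. Near 0, signs changed for 4 members, none past the threshold in the fit that changed its sign: leaving out each library in turn, the log2 fold change ran from -0.044 (without PBS replicate 1) to 0.13 for KEAP1, with -0.013 without rIL-17B replicate 1, from -0.70 to 0.018 (without rIL-17B replicate 1) for GCLC, from -0.26 to 0.018 (without PBS replicate 1) for GCLM, and from -0.048 (without rIL-17B replicate 2) to 0.068 for TXNRD1, with -0.040 without PBS replicate 2, and TXNRD1 was at -0.028 with at least 10 counts in every library, and the cause was not tested. The log2 fold change of HMOX1 lay between -2.76 and -0.21 over all settings.

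The labels number the replicates, but nothing says that equal numbers were handled together, and the deviations of equal numbers from the means of their groups were correlated across genes at 0.08. With the replicate block 0 genes passed, 173 had an unadjusted p under 0.05, and the log2 fold change of HMOX1 was -1.48 (adjusted p = 0.675 from edgeR). The block changed no call of a member. SRXN1 had at most 8 counts in a library and the other 8 members at least 656, and the part of depth and of the overlapping gene in the SRXN1 counts was not tested.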

Other observations

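Of the 86 tested genes of the wider list, 9 stood at least 2 times below the PBS mean in rIL-17B replicate 1. HMOX1 was 1 of these 9, and the share over all genes tested was 20.7%. These values were singled out after they were seen, and in rIL-17B replicate 2 each was nearer to the PBS level. MAFF, a small MAF partner of NRF2, had 19.2 and 17.5 CPM in the PBS libraries against 1.71 and 14.8 CPM in the rIL-17B libraries. OSGIN1, an oxidative stress response gene, had 31.6 and 30.3 CPM in the PBS libraries against 5.82 and 26.2 CPM in the rIL-17B libraries. SOD2, the mitochondrial superoxide dismutase, had 319 and 293 CPM in the PBS libraries against 76.7 and 284 CPM in the rIL-17B libraries. SLC40A1, the iron exporter ferroportin, had 15.03 and 15.83 CPM in the PBS libraries and 12.7 CPM in rIL-17B replicate 2, and its 0 counts in rIL-17B replicate 1 put that library at least 75.2-fold lower than the PBS mean at a floor of 3 counts for that library. The others were BACH1, CHAC1, GSTA4 and SOD3.

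In the other direction, 4 of the 86 tested genes of the list stood at least 2 times above the PBS mean in rIL-17B replicate 1. The share over all genes tested was 4.14%, and 0 of these 4 stood that far above it in rIL-17B replicate 2. They were GGT1, PRDX1, AKR1C2 and the export pump ABCC2, with 91.7 and 92.8 CPM in the PBS libraries against 186 and 104 CPM in the rIL-17B libraries for ABCC2. None of these genes passed the test across the 4 libraries in edgeR, with adjusted p values of 0.661 to 0.762 over the 13.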
